A study of Mus musculus with 9 samples.

Results

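The TGF-beta and BMP pathway was followed through 58 of the 23337 genes counted in Cebpb-ko mouse embryonic fibroblasts (MEFs) that express single isoforms of the transcription factor C/EBPβ. The genes were chosen by symbol and comprise the TGF-beta, activin, BMP and GDF ligands, their receptors, the SMADs, the secreted antagonists Grem1, Nog, Chrd, Fst, Fstl1 and Fstl3, and the target genes Id1 to Id4. The Bmp1 protease carries a matching symbol and was kept with them. Of the 58 genes 57 are described, and all counts of members cover these 57.

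RNA was sequenced from immortalised MEFs of a C57BL/6 x 129 background that lack functional Cebpb and were stably transfected with the empty vector (EV), with LAP, the long activating isoform, or with LIP, the short isoform without transactivation domains. Each group had 3 libraries, 9 in all, and every group, EV included, carries the Cebpb knockout and went through Zeocin selection. The introduced cDNAs are of rat origin, and whether each line is a clone or a pool of transfected cells is not stated. Nothing states that the libraries came from separate cultures, so all p-values measure only the spread between these libraries. The tests of counts estimate that spread partly from all genes together, not from each gene alone.

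In this pathway, secreted ligands bring together type I and type II receptor kinases, and the type I kinase phosphorylates a receptor-regulated SMAD. TGF-beta and activin signal mainly through SMAD2 and SMAD3, BMPs mainly through SMAD1, SMAD5 and SMAD9, and both arms share SMAD4 on the way to the nucleus. Inhibitory SMADs, secreted antagonists and co-receptors set how much ligand is felt. In fibroblasts TGF-beta is known for driving the production of extracellular matrix, and BMPs for inducing the ID genes.

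Between 24839139 and 33522082 reads per library were assigned to genes, so that 3 counts stand for 0.0895 to 0.121 CPM (counts scaled to a common library size), a floor that covers counting error only. The fibroblast label was checked against marker genes. The 10 fibroblast genes summed to 33339 to 38004 CPM in EV, 24581 to 41316 in LAP and 14527 to 28775 in LIP, while Ptprc, Emr1 and Itgam of leukocytes, Pecam1 of endothelium, Myod1 of muscle, Col2a1 of cartilage and Adipoq and Plin1 of adipocytes stayed at 3 counts or fewer in every library. Other genes of these lists were detected, with 68 to 250 counts of Cd68, 21 to 76 of Csf1r, 31 to 90 of Kdr, 19 to 63 of Des and 14 to 82 of Fabp4, and the cartilage and bone genes Sox9 and Sp7 reached 477 to 1580 and 47 to 329 counts. In sum the leukocyte, endothelial and muscle lists stayed at or below 8.88, 3.64 and 1.93 CPM. The 6 cartilage and bone genes summed to 42.7 to 58.9 CPM in EV, 33.3 to 47.1 in LAP and 19.0 to 45.0 in LIP, and the 4 adipocyte genes to 1.37 to 2.80, 1.18 to 2.74 and 0.452 to 1.02 CPM. The 6 epithelial genes summed to 577 to 706 CPM in EV, 485 to 986 in LAP and 587 to 1004 in LIP, nearly all from Krt8 and Krt14. Cdh1 had 24 to 111 counts, Krt18 22 to 73, Epcam 1 to 18 and Krt5 0 to 5. The summed fibroblast markers were lower in all LIP libraries than in any EV library, although 0 of the 10 passed edgeR's test in LIP against EV (3 by the DESeq2 Wald test). Their part in the results below was not tested, and fewer cells of a type cannot be told apart from less RNA per cell. Mouse Cebpb had 973, 684 and 1041 counts in EV, 1077, 709 and 817 in LAP and 816, 863 and 985 in LIP. These counts show neither the knockout nor the introduced isoforms, so they do not check the groups. The expressed isoforms derive from rat sequence, and whether their reads were counted for the mouse gene was not tested.

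Most of the pathway was expressed. Of the 57 genes, 39 had a mean of at least 20 counts and 21 a mean of at least 1000, whereas 9 stayed at 3 counts or fewer in every library, among them Bmp10, Gdf1 and Inhbc, which were at 0 throughout. Per kilobase of exon (RPKM), the highest levels in EV belonged to the secreted glycoprotein Fstl1 at 428 ± 30.6 (SD, n = 3), followed by Id3 at 182 ± 2.37, Gdf6 at 102 ± 19.2 and Id1 at 101 ± 6.25, of which Gdf6 and Id1 did not differ beyond their spread. Bmp4 was the leading BMP ligand at 57.2 ± 2.23 RPKM in EV and Tgfb3 the leading TGF-beta ligand at 42.2 ± 2.77 RPKM, above Tgfb1 at 15.8 ± 2.74 and Tgfb2 at 6.01 ± 1.07. Among the signal transducers Smad3 and Smad4 stood at the same 33.6 RPKM in EV. The BMP type I receptor Bmpr1a had 30.1 ± 2.66 RPKM and the TGF-beta type I receptor Tgfbr1 11.2 ± 1.33.

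These levels have a limit. Smad2, Smad5, Acvr1, Acvr2b and Tgfbr2 had means of only 41.1, 23.9, 57.2, 42.7 and 97.2 counts, and each has several RefSeq mRNAs. Stat3, a ubiquitous gene with 3 such mRNAs that was looked up after these values were seen, also had only 11 to 34 counts per library, while Smad4, likewise with several mRNAs, reached a mean of 3595 counts. Looked up together with Stat3, Ctnnb1 (2 mRNAs), Cebpb (3) and Gapdh (2) had means of 292, 885 and 3554 counts. Whether the counting lost reads of genes with several transcripts was not tested, and low levels of these genes are therefore uncertain. The same limit covers Tgfb2 (2 RefSeq mRNAs) and Tgfbr1 (3), and so their ranks below Tgfb3 and Bmpr1a, which have 1 each.

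**Figure D1:**
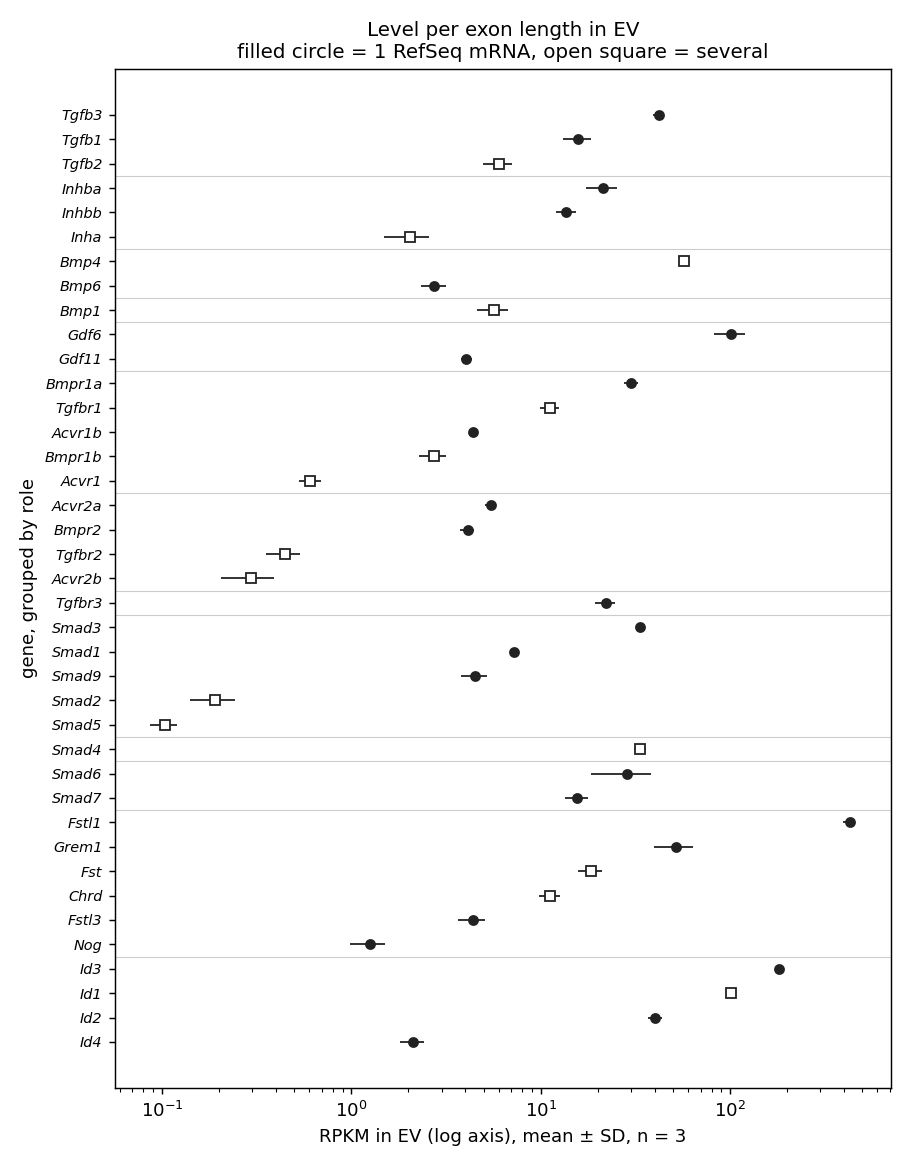
Level in EV of the 39 pathway genes that reached 20 mean counts, as RPKM on a log axis (mean ± SD, n = 3), grouped by role from ligands at the top to ID genes at the bottom. Filled circles mark genes with 1 RefSeq mRNA and open squares genes with several, and Smad2, Smad5, Acvr1, Acvr2b and Tgfbr2 are the open squares below 1 RPKM.

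The first comparison asked how LIP alone altered the pathway in cells without other C/EBPβ. The TGF-beta co-receptor Tgfbr3 fell 2.49-fold in LIP and was the only member past the threshold of edgeR's quasi-likelihood test (adjusted p under 0.05 over all genes), of 52 members tested. Over all genes 0.396% passed, 0.330% being lower in LIP. The DESeq2 Wald test called 3 members lower, beside 1.36% of all genes. With an unadjusted p under 0.05 there were 9 lower and 2 higher members, beside 6.75% and 4.23% of all genes, and in 9 lower and 2 higher members the LIP and EV libraries did not overlap, beside 8.83% and 6.80%. Among the 39 members above the limit of 20 mean counts the median log2 fold change was -0.16, beside 0.01 over all genes of that abundance, with 24 members lower and 15 higher.

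Tgfbr3 encodes betaglycan, which presents TGF-beta ligands to the signalling receptors and also binds inhibin (GRCm38.p6, chr5:107106567-107289629, minus strand). Its normalized level was 136, 117 and 149.8 CPM in EV, 149, 88.6 and 111 CPM in LAP, and 75.6, 51.4 and 35.2 CPM in LIP. All LIP libraries lay below all others, while LAP and EV overlapped. The log2 fold change of LIP against EV was -1.31 ± 0.237 (SE) with an adjusted p of 0.0397 by edgeR's quasi-likelihood test. Across 12 alternatives the adjusted p ran from 0.000666 to 0.165, and 7 of them kept the call. The call was lost without EV library 2 (adjusted p = 0.108), EV library 3 (0.0600) or LIP library 2 (0.121), as well as with scaling by total counts (0.0670) and with edgeR's filterByExpr (0.165), though the fold change stayed between -1.62 and -1.07 when any library was left out. A part of the Tgfbr3 exons overlaps the annotated gene Gm43422 on the same strand.

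Of the 6 secreted antagonists, 4 were lower in LIP than in EV and 0 passed edgeR's adjusted threshold. With an unadjusted p under 0.05 there were 3 lower, beside 6.75% of all genes, and the DESeq2 Wald test called 1 lower, beside 1.36%. Fstl1, the most abundant of them, stood at 1688, 1690 and 1488 CPM in EV, 2248, 1751 and 1712 CPM in LAP, and 1121, 479.7 and 713 CPM in LIP. The 3 groups did not overlap, with LAP highest and LIP lowest. Against EV, the LIP level had a log2 fold change of -1.07 ± 0.271 (adjusted p = 0.121 by edgeR, 0.0164 by the DESeq2 Wald test, 0.0164 to 0.372 over all alternatives). Without LIP library 1 it was -1.44, with an adjusted p of 0.0176 by edgeR.

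Gremlin 1 (Grem1), which binds and blocks BMPs, had its highest value in EV. It was measured at 226, 257 and 161 CPM in EV, 210.3, 216 and 81.5 CPM in LAP, and 147, 109 and 27.5 CPM in LIP. Library 3 was the lowest of each group. The LIP against EV log2 fold change of Grem1 was -1.18 ± 0.426 (adjusted p = 0.315 by edgeR, 0.00789 to 0.777 over the alternatives). Chordin (Chrd), another BMP trap, had 49.8, 38.6 and 44.3 CPM in EV and 33.3, 37.5 and 19.0 CPM in LIP, a log2 fold change of -0.57 ± 0.230 (adjusted p = 0.390 by edgeR). Noggin (Nog) was scarce, with 82, 58 and 57 counts in EV against 63, 40 and 8 in LIP, whereas follistatin (Fst), which sequesters activin, had a log2 fold change of 0.17 ± 0.159 with overlapping groups.

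**Figure D2:**
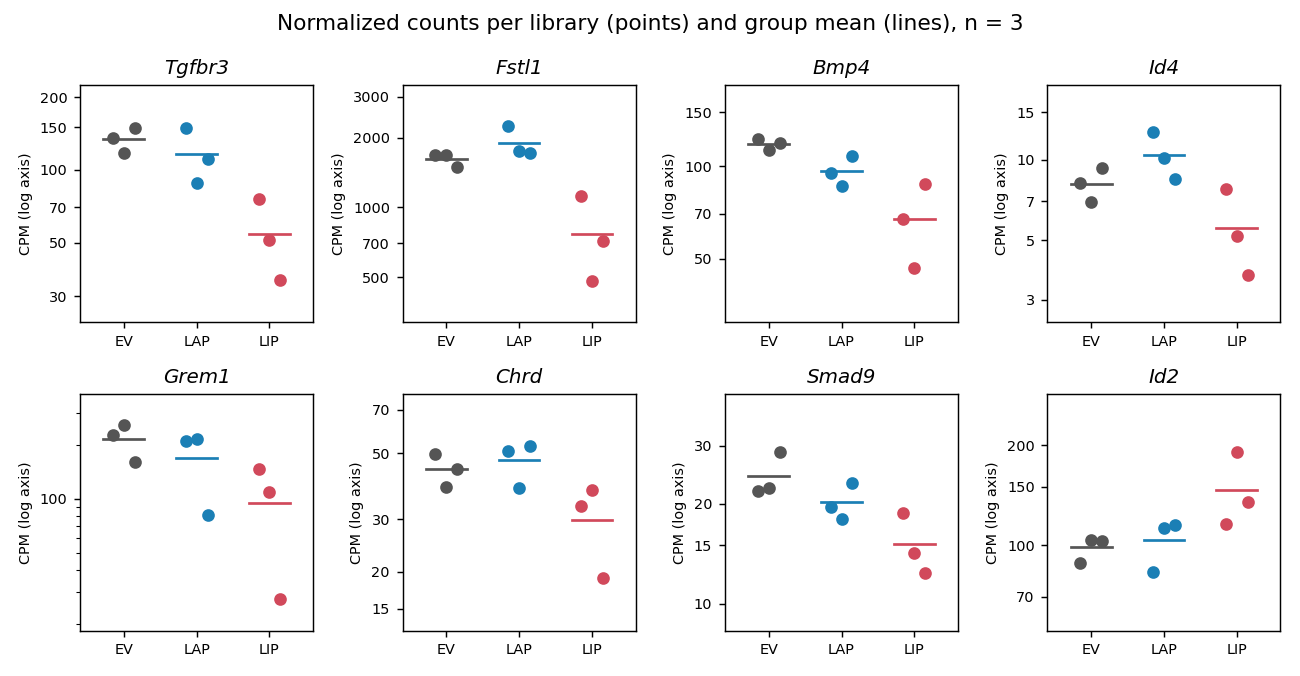
Normalized CPM of 8 pathway genes in each library on log axes, with points for the 3 libraries of EV, LAP and LIP in the order 1 to 3 and a line at each group mean. Tgfbr3 and Fstl1 have all LIP points below all other points, Smad9 has all LIP points below EV, and Id2 has its highest points in LIP.

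Among the ligands, Bmp4 was the member closest to the threshold. It stood at 122, 113 and 119 CPM in EV, 95.4, 86.5 and 108 CPM in LAP, and 67.2, 46.7 and 87.5 CPM in LIP. Both isoform lines lay below EV without overlap, and LIP and LAP overlapped by a single library. The LIP against EV log2 fold change was -0.82 ± 0.204 (adjusted p = 0.118 by edgeR, 0.0408 by the DESeq2 Wald test, 0.00894 to 0.319 over the alternatives), and without LIP library 3 it was -1.04 with an adjusted p of 0.00894. Of the other BMP ligands only Bmp6 exceeded a mean of 20 counts, at a log2 fold change of -0.39 ± 0.266 with overlapping libraries. Bmp2 had 8, 8 and 0 counts in EV, 0 in each LAP library and 1, 1 and 0 in LIP, too few for a fold change.

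The 3 TGF-beta ligands gave no call in LIP against EV, by edgeR or by the DESeq2 Wald test. By edgeR 1 of them was lower at an unadjusted p under 0.05, beside 6.75% of all genes. Tgfb3 ranged from 137 to 153 CPM in EV, while the LIP libraries had 98.7, 73.7 and 252 CPM, so that LIP held both the lowest and the highest values of all 9 libraries. Its log2 fold change was -0.01 ± 0.342, and without LIP library 3 it became -0.72, with an adjusted p of 0.0440 by edgeR. Tgfb2 gave -0.71 ± 0.251 (adjusted p = 0.307 by edgeR), and without LIP library 3 it gave -1.05 (adjusted p = 0.0194 by edgeR). Tgfb1 gave -0.12 ± 0.182. The activin subunits Inhba and Inhbb gave -0.52 ± 0.253 and -0.58 ± 0.201 (edgeR adjusted p = 0.487 and 0.292), and the Inhbb libraries of LIP lay between 28.6 and 49.6 CPM, below the 52.7 to 66.1 CPM of EV. The abundant ligand Gdf6, known for its part in joint formation, had -0.27 ± 0.216 with overlapping groups, and the protease Bmp1, which cleaves procollagen and chordin, had 0.05 ± 0.296.

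No receptor apart from Tgfbr3 and no SMAD passed the threshold in LIP against EV, by edgeR or by the DESeq2 Wald test. For the TGF-beta type I receptor Tgfbr1 the LIP against EV log2 fold change was -0.14 ± 0.155, for Bmpr1a -0.16 ± 0.216, for the activin receptor Acvr1b 0.10 ± 0.187, for the BMP type II receptor Bmpr2 -0.34 ± 0.179 and for the activin type II receptor Acvr2a 0.02 ± 0.155. The libraries of both groups overlapped for each of these receptors. Acvr1, a type I receptor whose low level is uncertain, was lower in each LIP library than in any EV library. Its log2 fold change stayed between -0.64 and -0.39 when any library was left out (edgeR adjusted p = 0.356 to 0.863). Acvr2b, a type II receptor for activins, had only 22 to 49 counts in EV and 35 to 69 in LIP, with a log2 fold change of 0.88 ± 0.340 (adjusted p = 0.356 by edgeR). Smad9, which transmits BMP signals, was at 21.8, 22.3 and 28.7 CPM in EV and 18.7, 14.2 and 12.4 CPM in LIP (-0.68 ± 0.207, adjusted p = 0.210 by edgeR), and Smad3, which transmits TGF-beta signals, was at 175, 163 and 174 CPM in EV and 198, 202 and 228 CPM in LIP (0.29 ± 0.15, adjusted p = 0.510 by edgeR). Neither gene overlapped between the groups. Smad1 had -0.04 ± 0.151, the shared Smad4 0.11 ± 0.160, and the inhibitory Smad6 and Smad7 had -0.16 ± 0.344 and 0.15 ± 0.206.

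The ID genes, which encode dominant-negative helix-loop-helix proteins and serve as readouts of BMP signalling, did not share a direction. Id1 and Id3, the most abundant of them, had log2 fold changes of 0.05 ± 0.151 and -0.17 ± 0.153 in LIP against EV. Id2 was measured at 88.6, 103 and 103 CPM in EV, 82.7, 113 and 115 CPM in LAP and 115, 190.3 and 135 CPM in LIP, and all LIP values lay above those of EV (0.58 ± 0.190, adjusted p = 0.257 by edgeR). Id4 was measured at 8.15, 6.97 and 9.29 CPM in EV, 12.7, 10.1 and 8.43 CPM in LAP and 7.76, 5.18 and 3.71 CPM in LIP. For Id4 the LIP and EV values overlapped and the LIP and LAP values did not.

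The lowest values of the members were concentrated in LIP libraries 2 and 3. Of the same 39 members, LIP library 3 held the lowest of the 9 values for 13 members and the highest for 6, and LIP library 2 held the lowest for 12 and the highest for 6. No other library was lowest for more than 6. The same count was not made over all genes, so whether this is particular to the members was not tested.

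**Figure D3:**
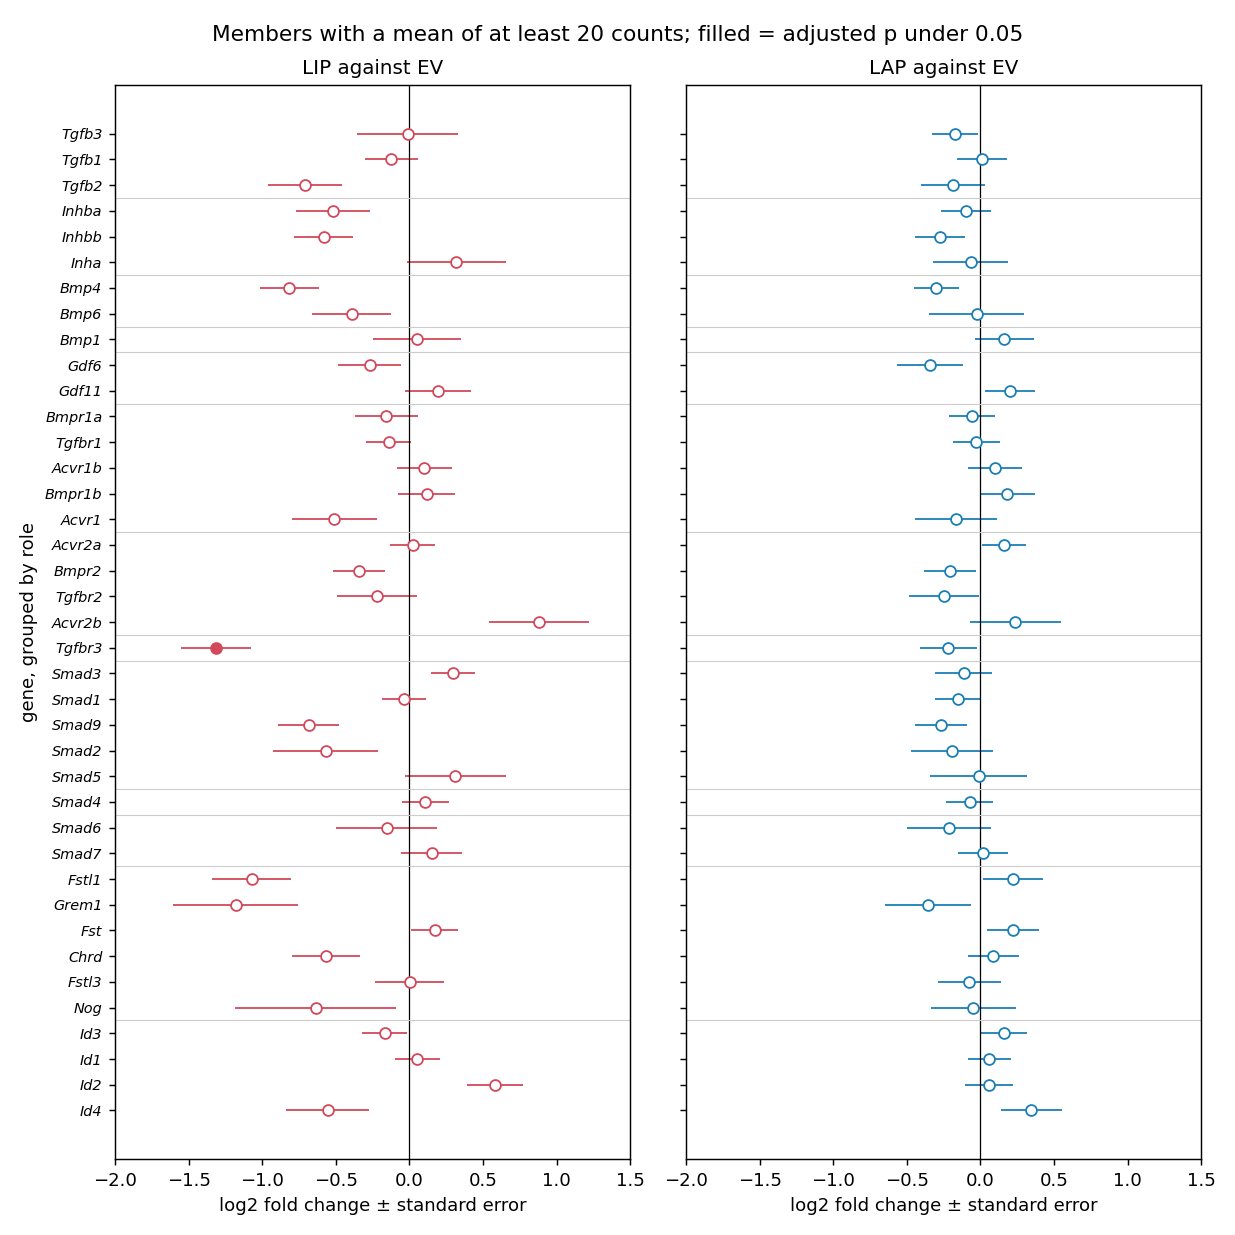
Log2 fold changes with standard errors of the same 39 pathway genes, LIP against EV on the left and LAP against EV on the right, grouped by role, where filled points have an adjusted p under 0.05. Tgfbr3 on the left is the only filled point, and both panels use the same EV libraries.

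The second comparison asked the same of LAP. Bmp4 was lower in each LAP library than in any EV library, by a log2 fold change of -0.30 ± 0.152, and Fstl1 was higher in each, by 0.22 ± 0.205, but neither passed. By edgeR's quasi-likelihood test 0 of the 53 described members tested passed, and likewise 0 by the DESeq2 Wald test, in a comparison where edgeR called 0.0606% of all genes, 0.0330% being lower. The unadjusted p was under 0.05 for 1 lower and 0 higher members, beside 1.34% and 1.93% of all genes, the lower one being the scarce Bmp2. In 2 lower and 2 higher members the LAP and EV libraries did not overlap, beside 3.76% and 3.81%. The values so far ignore the replicate number. With the number as a block 0 members passed as well, beside 54 of 18156 genes. Bmp4 gave -0.31 and Fstl1 0.21 in that fit (edgeR adjusted p = 0.796 and 0.890).

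Beside Bmp4 and Fstl1, the members without overlap between LAP and EV were Acvr2a with 0.16 ± 0.149 and Gdf5 at 2 counts or fewer in every library. The adjusted p of each of these 4 was 0.918 by edgeR without the block. The median over the 39 members was -0.06. Tgfbr3, which fell in LIP, had -0.22 ± 0.193 in LAP. LAP and LIP were compared with the same EV libraries, so these values are not independent of those above.

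LIP and LAP, which bind the same DNA sites, were then compared directly. By edgeR's quasi-likelihood test 0 of 53 members passed, beside 1.05% of all genes, of which 0.837% were lower. The unadjusted p was under 0.05 for 5 lower members and 1 higher, beside 5.98% and 3.30% of all genes, and the DESeq2 Wald test called 2 lower, beside 1.09%. In this pair of groups the libraries of the same number deviated together, and with the replicate number as a block 6 members fell in LIP, beside 4.79% of all genes lower in that fit: Fstl1, Tgfbr3, Grem1, Chrd, Bmp4 and Id4. In 4 lower and 3 higher members the LIP and LAP libraries did not overlap, beside 6.58% and 6.23% of all genes. The lower ones were Fstl1, Tgfbr3, Id4 and Acvr2a, and the higher ones Acvr2b, Id2 and Smad3, with log2 fold changes of 0.65 ± 0.357, 0.53 ± 0.235 and 0.41 ± 0.243 (edgeR adjusted p = 0.639, 0.484 and 0.693).

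Among the 39 members with at least 20 mean counts Fstl1 had the largest fold change of LIP against LAP, at a log2 value of -1.29 ± 0.331 (adjusted p = 0.0715 by edgeR) and of -1.36 with the block (6.66e-09). For Tgfbr3 the values were -1.09 ± 0.272 (0.0603) and -1.12 with the block (1.33e-06). With the block, the libraries of a comparison hold little information on the spread of a single gene. The small p-values of every blocked fit given here therefore rest largely on spread estimated over all genes. Without LAP library 3 and without the block, Fstl1 and Tgfbr3 passed edgeR's threshold, at adjusted p of 0.0450 and 0.0272. The BMP traps Grem1 and Chrd gave -0.81 ± 0.418 and -0.65 ± 0.256 without the block, and -0.999 and -0.69 with it (edgeR adjusted p = 2.01e-05 and 0.0137). Their ligand Bmp4 gave -0.51 ± 0.237, and -0.55 with the block (0.0390). For Id4 the log2 fold change was -0.89 ± 0.309, and -0.93 with the block (0.00259). A BMP ligand and BMP antagonists were lower together in the blocked fit. In the same blocked fit 8 of the 10 fibroblast markers were lower in LIP as well.

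Beyond the 58 genes, 82 other genes of the pathway were listed, namely further ligands, latent TGF-beta binding proteins, extracellular modulators, co-receptors, intracellular regulators and response genes. In LIP against EV 3 of 78 tested fell and 0 rose by edgeR, beside 0.330% of all genes lower, and the DESeq2 Wald test called 6 lower and 0 higher, beside 1.36% lower. The unadjusted p of edgeR was under 0.05 for 15 lower and 0 higher, beside 6.75% and 4.23%. The genes that fell were Tgfbi and Postn, matrix proteins induced by TGF-beta, and Lrrc32, which encodes GARP, a cell-surface anchor of latent TGF-beta. Between LIP and LAP 4 of 77 fell and 0 rose, by edgeR as by the DESeq2 Wald test, beside 0.837% and 1.09% of all genes lower, namely these same 3 and Snai2, a transcription factor of the epithelial-mesenchymal programme. With the replicate block 16 fell and 1, Ltbp4, rose in LIP against LAP, beside 4.79% of all genes lower and 1.72% higher in that fit. In LAP against EV 0 passed by edgeR or by the DESeq2 Wald test, and 0 had an unadjusted p under 0.05.

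Tgfbi was measured at 27.8, 20.6 and 14.9 CPM in EV, 21.6, 13.1 and 7.14 CPM in LAP and 5.43, 2.10 and 1.13 CPM in LIP. All LIP libraries lay below all others. It fell 7.40-fold against EV (log2 -2.89 ± 0.454, adjusted p = 0.0178 by edgeR) and 4.82-fold against LAP (-2.27 ± 0.463, 0.0242). Lrrc32 was measured at 139, 89.7 and 115 CPM in EV, 212, 104 and 92.0 CPM in LAP and 54.7, 35.8 and 25.7 CPM in LIP, again without overlap. The log2 fold changes of Lrrc32 were -1.56 ± 0.253 against EV (adjusted p = 0.0215 by edgeR) and -1.80 ± 0.315 against LAP (0.00862). Postn had few counts, at 3.54 to 4.57 CPM in EV, 2.0 to 4.66 CPM in LAP and 0.388 to 1.55 CPM in LIP, with -2.40 ± 0.457 against EV (adjusted p = 0.0481 by edgeR) and -2.06 ± 0.483 against LAP (0.0459). It has 6 RefSeq mRNAs, so its low level is uncertain as well. Snai2 stood at 37.6 to 40.2 CPM in EV, 29.9 to 53.9 CPM in LAP and 7.62 to 22.4 CPM in LIP, with -1.44 ± 0.298 against EV (adjusted p = 0.0662 by edgeR) and -1.58 ± 0.318 against LAP (0.0235).

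The number of calls varied with the libraries used. Without LIP library 2, 0 of the 82 genes passed in LIP against EV, although the log2 fold changes of Tgfbi, Lrrc32 and Postn were -2.71, -1.51 and -2.10 (edgeR adjusted p = 0.0792, 0.0792 and 0.136). Without LIP library 1, 7 fell. Of all genes, 26 of 17955 were lower without LIP library 2 and 246 of 18094 without LIP library 1, beside 60 of 18203 in the main fit. In LIP against LAP 1, Lrrc32, passed without LIP library 2, 0 passed without LAP library 2, and 7 fell and 1 rose without LAP library 3. Of all genes, 94 of 17896 passed without LIP library 2 and 7 of 17990 without LAP library 2. Without LAP library 3, 344 of 17869 genes were lower and 64 higher. Without LAP library 2, Tgfbi, Lrrc32, Postn and Snai2 had log2 fold changes of -2.33, -1.98, -2.11 and -1.55 (edgeR adjusted p = 0.138, 0.0727, 0.205 and 0.138). With filterByExpr 0 passed in either comparison, at adjusted p of 0.139 (Lrrc32 and Tgfbi) and 0.176 (Postn) against EV.

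Bambi, a pseudoreceptor that dampens TGF-beta and BMP signals, was measured at 15.9, 13.9 and 10.6 CPM in EV, 22.2, 23.5 and 10.4 CPM in LAP and 12.6, 5.31 and 1.36 CPM in LIP. Library 3 was the lowest of each group, and LIP overlapped both other groups. The log2 fold change of Bambi in LIP against LAP was -1.52 ± 0.489 without the block (adjusted p = 0.203 by edgeR) and -1.87 with it (9.51e-10), and it also passed without LIP library 3 or LAP library 3. Ltbp4, a latent TGF-beta binding protein, had only 58, 27 and 59 counts in EV, 25, 13 and 38 in LAP and 41, 52 and 82 in LIP. Its low level is uncertain too, since it has 3 RefSeq mRNAs. After normalization all LIP libraries lay above all LAP libraries, and LIP overlapped EV. Against LAP its LIP level gave 1.20 ± 0.421 (adjusted p = 0.278 by edgeR) and 1.27 with the block (0.00573), and it passed without LAP library 3.

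**Figure D4:**
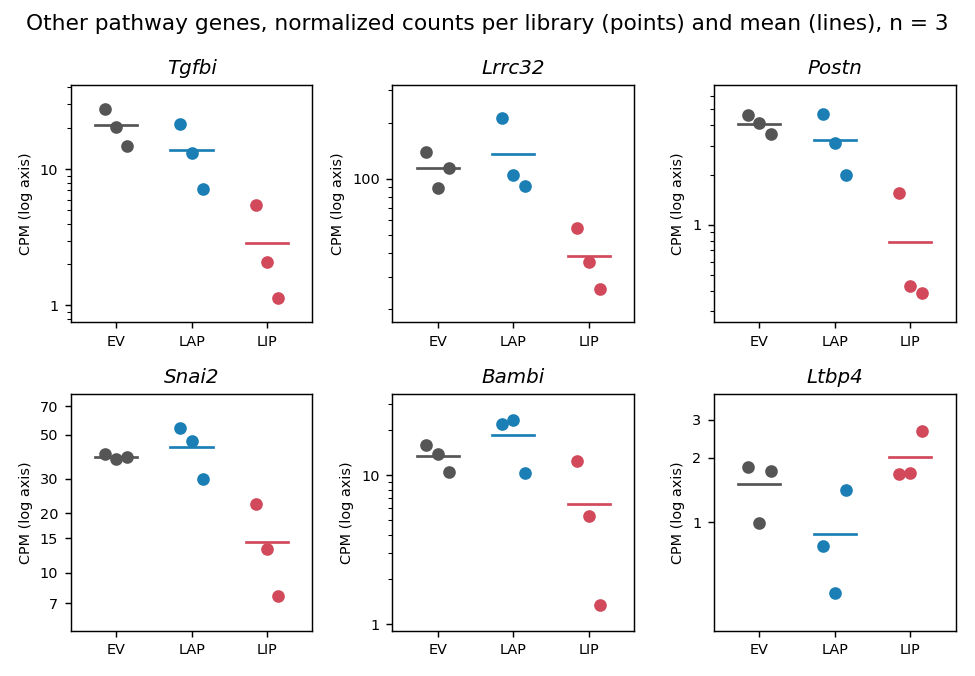
Normalized CPM of 6 other pathway genes in each library on log axes, with points for the 3 libraries of EV, LAP and LIP and a line at each group mean. Tgfbi, Lrrc32, Postn and Snai2 have all LIP points below all EV and LAP points, whereas in Bambi and Ltbp4 the LIP points overlap those of EV.

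Among the response genes of TGF-beta, 13 of the 15 that reached 20 mean counts were lower in LIP than in EV, with a median log2 fold change of -0.41, beside 5522 lower of 11535 genes of that abundance and a median of 0.01. The list shares 3 genes, Col1a1, Col1a2 and Fn1, with the fibroblast markers whose sum was lower in LIP, and of the 12 others 10 were lower, with a median of -0.40. The proteins that bind or activate latent TGF-beta were lower in 8 of 10, with a median of -0.46. BMP response genes had a median of -0.09 over 4 genes, and intracellular regulators of SMADs a median of -0.01 over 18, with 11 lower and 7 higher. Ski, a co-repressor of SMAD-driven transcription, had the smallest p of these regulators. Its log2 fold change was -0.58 to -0.36 with any library left out (edgeR adjusted p = 0.129 to 0.645). The most abundant gene of the TGF-beta response list, Fn1, which encodes fibronectin, had -0.28 ± 0.302. Cyr61, a matricellular protein, had -0.11 ± 0.297, and Thbs1, which activates latent TGF-beta, had -0.48 ± 0.463 with LIP library 3 at 505 CPM and LIP library 1 at 3017 CPM.

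Promoter sequence was available in RefSeq (GRCm38.p6) for 40 of the 57 members, in windows of 300 bases around the transcript start. It is shown for Tgfbi, which had the largest fold change of the pathway genes past the threshold, and for the BMP ligand Bmp4 and the BMP antagonist Grem1. Bmp4 and the secreted antagonists Grem1, Chrd and Fstl1 were lower in LIP against LAP with the block. Capitals mark the SMAD-binding element GTCTG, read as CAGAC on the other strand, and the GC-rich BMP-responsive element GGCGCC. The sequences run 5′ to 3′ on the strand of the gene.
Tgfbi promoter, chr13:56609336-56609635, plus strand: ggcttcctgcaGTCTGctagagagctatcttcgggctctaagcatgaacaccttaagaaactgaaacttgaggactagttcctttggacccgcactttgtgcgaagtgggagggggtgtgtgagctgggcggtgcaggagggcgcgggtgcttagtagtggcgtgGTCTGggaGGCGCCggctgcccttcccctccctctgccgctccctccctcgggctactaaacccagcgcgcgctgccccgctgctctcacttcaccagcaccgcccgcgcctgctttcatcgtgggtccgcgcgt
Grem1 promoter, chr2:113758599-113758898, minus strand: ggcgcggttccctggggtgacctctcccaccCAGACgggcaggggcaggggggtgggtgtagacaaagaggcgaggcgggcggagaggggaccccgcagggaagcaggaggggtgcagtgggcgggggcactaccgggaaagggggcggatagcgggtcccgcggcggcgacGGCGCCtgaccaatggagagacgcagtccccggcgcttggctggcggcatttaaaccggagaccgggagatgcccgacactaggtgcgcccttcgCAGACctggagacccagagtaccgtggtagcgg
Bmp4 promoter, chr14:46390620-46390919, minus strand: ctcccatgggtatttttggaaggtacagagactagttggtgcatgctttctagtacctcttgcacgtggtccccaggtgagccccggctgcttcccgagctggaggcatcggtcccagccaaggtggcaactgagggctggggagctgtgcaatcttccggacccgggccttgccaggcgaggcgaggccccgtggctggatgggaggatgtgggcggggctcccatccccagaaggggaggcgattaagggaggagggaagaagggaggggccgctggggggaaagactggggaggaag

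The Tgfbi and Grem1 windows each hold 2 copies of GTCTG and 1 of GGCGCC, and the Bmp4 window holds neither. The C/EBP site TTGCNNAA, in which N is any base, was searched on both strands as well and is in none of the 3 windows. Of the antagonists not printed, the Chrd window holds 1 copy of GTCTG, 1 of GGCGCC and no TTGCNNAA, and the Fstl1 window holds none of these motifs. Over all 32851 promoter windows, 49.6% hold GTCTG, 11.9% hold GGCGCC and 10.8% hold TTGCNNAA. Of the 48 windows of the members, 22 (45.8%) hold GTCTG, 13 (27.1%) hold GGCGCC and 4 (8.33%) hold TTGCNNAA. A match of letters is a description, not a site bound in these cells.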

How the data were processed

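RNA libraries were prepared from EV, LAP and LIP Cebpb-ko MEFs with a poly(A) kit and sequenced as single-end reads. The authors used bcl2fastq 1.8.3, aligned with TopHat 1.4.1 to mm10 with RefSeq genes, counted with HTSeq 0.5.4, and deposited raw counts per gene symbol without normalization. The strand setting is not given in the sources used here, so overlapping genes on opposite strands (18 members have some exon overlap in GENCODE) cannot be told apart. All 9 columns were used.

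Each comparison took 6 libraries and genes with at least 1 count. TMM-normalized counts were tested by edgeR 4.0.16 (R 4.3.3) with the quasi-likelihood test without covariates, and p-values were adjusted by Benjamini-Hochberg over all genes tested, with a threshold of 0.05. Standard errors were obtained by dividing each log2 fold change by the root of its F value. CPM carry TMM factors over all 9 libraries (0.949 to 1.10), and RPKM use the union exon length of GENCODE vM21, since no RefSeq exon lengths were at hand. A two-sided exact permutation test of 3 against 3 libraries cannot go below p = 0.1. The test was tried on simulated counts.

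The members, the lists of other pathway genes and the rule for named genes were chosen with earlier results of these data known. The rule found 58 members, of which 1 is not reported here and is left out of all member counts and figures. Named were members past the threshold, up to 3 per role by mean count, up to 10 per comparison without overlap between groups by smallest p, and in each other list the genes past the threshold, with the smallest p in LIP against EV and with the highest count. Values of named genes with a mean under 20 counts, such as Bmp7 and Gdf15, are mostly not printed. Smad2, Smad5, Bmp2, Bmp10, Gdf1, Inhbc, Nog, Bambi, Ltbp4, Stat3, Ctnnb1, Gapdh and Cebpb fall outside the rule and were named after their values were seen.

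Replicate numbers come from the labels, which do not say what they mark. Over 11535 genes, deviations from the group means were correlated between libraries with the same number. The correlations were 0.421 to 0.577 between LIP and LAP, 0.223 to 0.546 between LAP and EV, and -0.119 to 0.311 between LIP and EV. The main tests ignored the numbers in all comparisons. For LIP against LAP and LAP against EV, a fit with the number as a block is given beside them.

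The alternatives were DESeq2 1.42.0 size factors, total counts only, the DESeq2 Wald test, filterByExpr, a joint model of all 9 libraries, the replicate block, and each library left out in turn. Figures were drawn with matplotlib 3.10.9.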

Additional observations from a re-analysis of the deposited data

How the results depend on the processing

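The counts of members past the threshold depended on the processing. In LIP against EV, where 1 member passed, 0 passed with total counts only and with filterByExpr, 3 by the DESeq2 Wald test (Bmp4, Fstl1 and Tgfbr3) and 4 with the replicate block (these 3 members and Grem1, the latter at a log2 fold change of -1.45 with an adjusted p of 0.00789), whose numbers did not pair these libraries, since LIP libraries 1 and 3 but not LIP library 2 correlated best with the EV library of their own number. Leaving out a library gave 0 to 4, with 0 without EV library 2, EV library 3 or LIP library 2, 2 without LIP library 1 and 4 without LIP library 3. In LAP against EV, with 0 called by edgeR (1 at an unadjusted p under 0.05), 0 passed under each of the 12 alternatives, the DESeq2 Wald test included. In LIP against LAP, with 0 called, 2 passed by the DESeq2 Wald test and with all 9 libraries (Fstl1 and Tgfbr3 in each), 6 with the replicate block, and 0 to 2 without a library, with 2 without LAP library 3. Apart from the calls given beside the results, the block changed no call of a member in LAP against EV or LIP against LAP. Over all genes in LIP against EV, 72 passed in the main analysis, 36 with total counts only, 321 by the DESeq2 Wald test, 4 with filterByExpr, 157 with all 9 libraries and 467 with the block. In LAP against EV these counts were 11, 13, 26, 3, 5 and 54, and in LIP against LAP 190, 113, 255, 2, 263 and 1183. Leaving out a library gave 22 to 367, 6 to 62 and 7 to 448 in the 3 comparisons. With filterByExpr fewer genes were tested (12424 in place of 18203 for LIP against EV), and the cause of the lost calls was not tested.

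Of 996 fold changes of named genes under alternatives, 33 changed sign, each for a gene whose main fold change lay within 1 standard error of 0. With the block Bmp1 turned to -0.055 in LIP against EV, and with total counts only Fkbp1a turned to 0.012 and Tgfb3 to 0.0069. The other sign changes came from leaving out a library, with log2 ranges in LIP against EV of Acvr1b -0.057 to 0.18, Acvr2a -0.0049 to 0.088, Bmp1 -0.46 to 0.29, Bmpr1a -0.44 to 0.035, Crim1 -0.18 to 0.039, Cyr61 -0.49 to 0.21, Fkbp1a -0.14 to 0.060, Gdf11 -0.047 to 0.41, Id1 -0.017 to 0.14, Inha -0.073 to 0.54, Smad1 -0.062 to 0.010, Smad4 -0.018 to 0.17, Smad6 -0.73 to 0.16, Smad7 -0.082 to 0.35, Tgfb1 -0.24 to 0.037 and Tgfb3 -0.72 to 0.29. The ranges in LAP against EV were Chrd -0.0092 to 0.23, Id2 -0.029 to 0.19, Lrrc32 -0.24 to 0.46, Smad3 -0.30 to 0.091 and Snai2 -0.046 to 0.35. No scaling moved the median of all genes by as much as 0.1 on the log2 scale.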
